A study of Homo sapiens with 9 samples.

Results

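Desmosomes are spot junctions that rivet the keratin filaments of neighbouring epithelial cells together. Their outer layer is built from transmembrane cadherins, the desmogleins and desmocollins, which bind between cells. Below the membrane, plakoglobin and the plakophilins link the cadherin tails to desmoplakin, the plakin that anchors keratin, and periplakin and envoplakin are plakins found at desmosomes and in the cornified envelope of skin. In simple epithelia such as the pancreatic duct the desmosomal cadherins are mainly desmoglein 2 and desmocollin 2, whereas desmoglein 3, desmocollin 3 and plakophilin 1 are typical of stratified epithelia. The desmosome genes described here are 10 of the 42717 genes in the deposited count table. They were picked by symbol, with earlier results of these data known. They are the desmogleins DSG2 and DSG3, the desmocollins DSC2 and DSC3, and the desmoplakin gene DSP. The others are the plakophilins PKP1, PKP2 and PKP3, the periplakin gene PPL and the envoplakin gene EVPL. All 10 passed the expression filter in every comparison.

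RNA was sequenced from S2-007, S2-028 and S2-020 cells, with 3 libraries per line and 9 in all. These are sublines of SUIT-2, a line from a human pancreatic ductal adenocarcinoma, and the cells of all lines were grown in DMEM with 10% inactivated bovine serum, with no treatment named. The study describes S2-007 as panMaspin (the serpin maspin in nucleus and cytoplasm), S2-028 as cytMaspin (maspin in the cytoplasm) and S2-020 as a line with little maspin of its own. Each condition is thus a single subline, so that what separates the lines cannot be told apart from their maspin status. Total counts lay between 60328748 and 86253923 per library. The 8 epithelial markers checked were expressed in every line, with a summed level of 9663 to 10196 normalized CPM (counts scaled to library size with trimmed mean of M-values factors) in S2-007, 4346 to 5462 in S2-020 and 15355 to 17984 in S2-028. Markers of acinar cells summed to at most 1.16 CPM in any library. The leukocyte sum was 294 to 369 CPM in S2-007 and at most 5.02 elsewhere, and LYZ alone gave 332 ± 37.8 CPM (SD, n = 3) of it in S2-007, whereas the pan-leukocyte marker PTPRC had 6 to 26 counts in every library.

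The genes of the 4 cadherins lie together on chromosome 18 of GRCh38.p14, DSC3 from 30989365 to 31042742 and DSC2 from 31058840 to 31102421 on the minus strand, DSG3 from 31447741 to 31478702 and DSG2 from 31498177 to 31549008 on the plus strand. The others are scattered. DSP lies on chromosome 6 from 7541671 to 7586714, PKP1 on chromosome 1 from 201283506 to 201332989, PKP2 on chromosome 12 from 32790755 to 32896777, PKP3 on chromosome 11 from 392596 to 404908, PPL on chromosome 16 from 4882507 to 4937148 and EVPL on chromosome 17 from 76006845 to 76027306. RefSeq promoter sequence was matched for 6 of the 10 genes. Those of PKP2, PKP3, PPL and EVPL were not among them. Shown here are the 250 bases before the gene start, 5′ to 3′ on the gene's own strand, of the pair of cadherin genes that differed most between the lines (DSC2 and DSG2), of a gene with similar levels in all lines (DSP) and of a gene with little RNA in any line (DSG3). Capitals mark the E-box CACCTG on either strand (CAGGTG when read on the other strand), a motif of the ZEB and SNAI repressors.
DSC2 (chr18:31102422-31102671, minus strand): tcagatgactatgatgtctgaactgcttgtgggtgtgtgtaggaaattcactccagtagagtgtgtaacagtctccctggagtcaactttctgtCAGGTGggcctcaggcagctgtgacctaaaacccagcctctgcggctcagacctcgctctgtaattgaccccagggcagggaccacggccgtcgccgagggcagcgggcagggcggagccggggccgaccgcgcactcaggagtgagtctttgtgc
DSG2 (chr18:31497927-31498176, plus strand): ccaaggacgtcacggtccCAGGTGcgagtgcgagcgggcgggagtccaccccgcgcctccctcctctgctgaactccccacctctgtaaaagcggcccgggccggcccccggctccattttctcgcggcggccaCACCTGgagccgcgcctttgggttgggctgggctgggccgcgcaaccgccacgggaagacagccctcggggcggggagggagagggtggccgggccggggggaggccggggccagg
DSP (chr6:7541421-7541670, plus strand): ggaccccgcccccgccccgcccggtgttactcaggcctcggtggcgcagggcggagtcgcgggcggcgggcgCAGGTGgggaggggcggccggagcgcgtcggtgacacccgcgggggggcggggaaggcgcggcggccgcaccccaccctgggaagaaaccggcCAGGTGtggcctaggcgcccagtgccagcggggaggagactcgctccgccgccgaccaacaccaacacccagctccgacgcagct
DSG3 (chr18:31447491-31447740, plus strand): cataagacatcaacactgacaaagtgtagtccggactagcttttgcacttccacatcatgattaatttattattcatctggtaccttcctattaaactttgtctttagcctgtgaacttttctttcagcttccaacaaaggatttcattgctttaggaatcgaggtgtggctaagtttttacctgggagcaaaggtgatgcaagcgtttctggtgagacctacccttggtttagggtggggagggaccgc
The DSC2 window held 1 such E-box, 156 bases before the start, and the DSG2 and DSP windows held 2 each. RefSeq lists a further DSC2 start at 31101260, not shown, whose window held 0. No match was found in the windows of DSG3, DSC3 and PKP1. For the plakoglobin gene JUP, not one of the 10, the window of the first listed start held 0. That of a further JUP start at 41785976 held 2. Of all 35116 promoter windows of this length, 17.5% held the motif. The G+C content was 42.8% for DSG3, 59.6% for DSC2, 75.2% for DSG2 and 78.0% for DSP, against a median of 58.0% over all windows. The AP-1 motif TGANTCA, present in 6.57% of all windows, and the grainyhead motif AACCNGTT, present in 1.49%, had no match on either strand in the windows of the 6 matched desmosome genes.

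Among the desmosome genes, S2-020 cells stood apart from the other lines with lower DSC2, DSG2 and PKP3, and S2-007 cells stood apart with lower PPL. DSC2 was 6.79-fold lower in S2-020 than in S2-007 and 9.53-fold higher in S2-028 than in S2-020. PPL was 2.56-fold higher in S2-028 and 2.15-fold higher in S2-020 than in S2-007. DSP, the filament anchor, stayed within 1.5-fold across the lines, and the stratified-type genes DSG3, DSC3 and PKP1 were low in all of them. A gene was called when edgeR's quasi-likelihood test gave a Benjamini-Hochberg adjusted p under 0.05 over all genes tested and the lines differed by at least 1.5-fold.

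**Figure D1:**
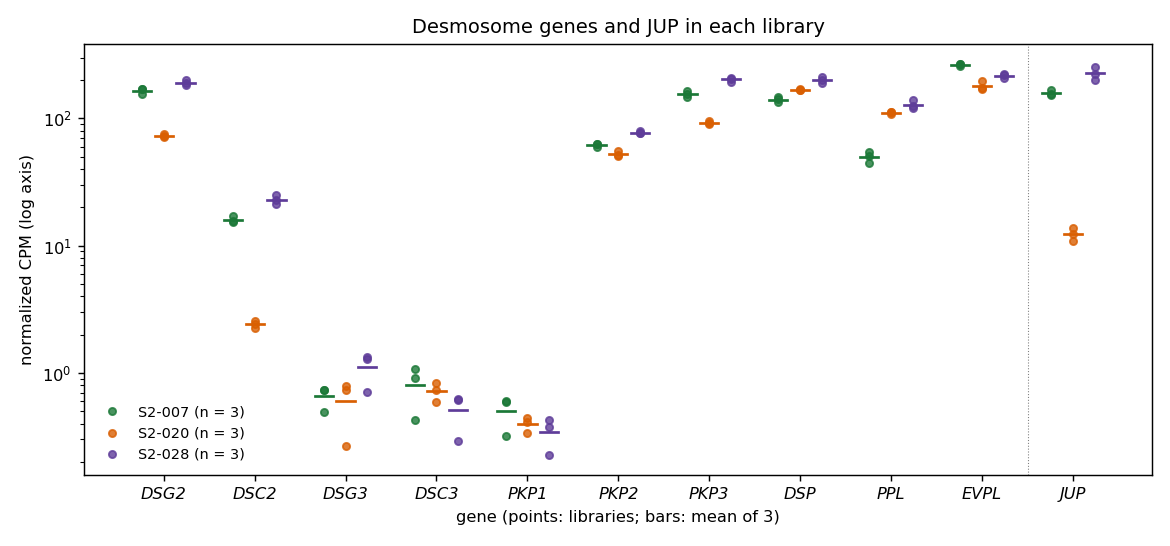
Normalized CPM (log axis) of the 10 desmosome genes and of JUP, the plakoglobin gene, in each of the 3 libraries of S2-007, S2-020 and S2-028, with a bar at each line's mean. DSC2 and JUP in S2-020 lie far below the other lines, PPL in S2-007 lies below the other lines, and DSG3, DSC3 and PKP1 lie near or below 1 CPM throughout.

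In S2-028 against S2-007 cells, the comparison that the study itself made, 1 of the 10 desmosome genes was called higher (PPL) and 0 lower, whereas 10.2% of the 26371 genes tested were called higher and 8.19% lower (18.4% in either direction). The libraries of these lines did not overlap for 7 of the 10 genes, against 43.3% of all genes, and the same 7 had an adjusted p under 0.05. Apart from PPL, these differences between the libraries were smaller than 1.5-fold. In S2-020 against S2-007 cells, 1 was called higher (PPL) and 4 lower (DSG2, DSC2, PKP3 and EVPL), against 9.57% and 12.1% of 26657 genes (21.6% in either direction). In S2-028 against S2-020 cells, 3 were called higher (DSG2, DSC2 and PKP3) and 0 lower, against 12.1% and 10.1% of 26031 genes (22.2% in either direction). Here too 7 of the 10 genes had libraries that did not overlap, against 48.5% and 48.9% of all genes. In these comparisons the 10 genes had medians of 0.36, -0.32 and 0.42 on the log2 fold change scale, beside 0.00, -0.05 and 0.02 for everything tested. The comparisons share libraries, each line entering 2 of them, so their counts are not independent of each other.

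**Figure D2:**
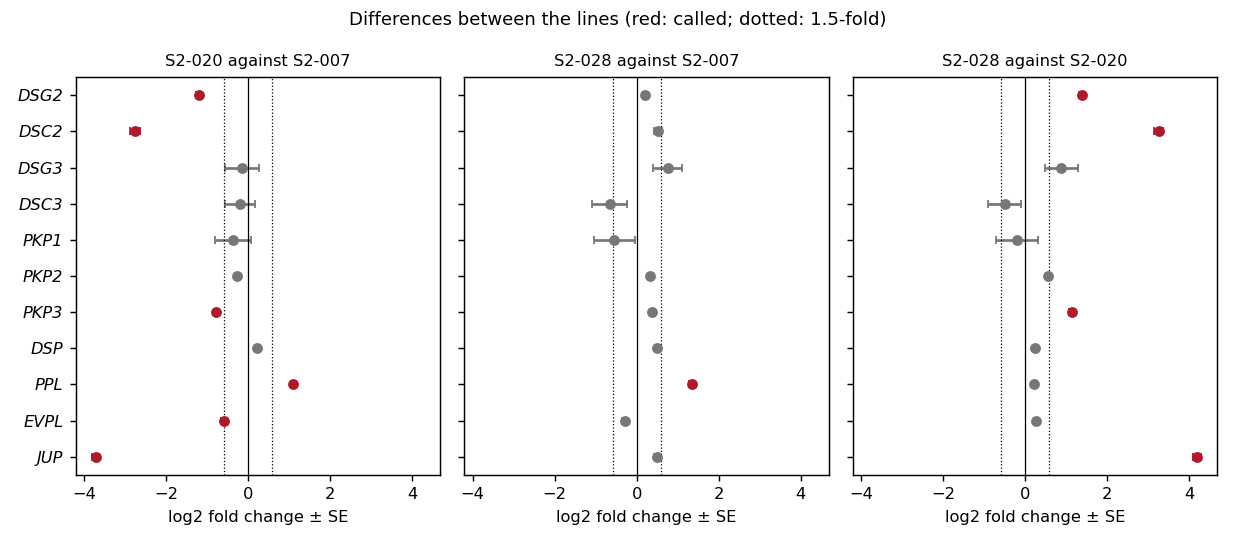
log2 fold change with its standard error of the desmosome genes and JUP in the comparisons of the 3 lines (3 libraries against 3). The standard error was derived from the F statistic of edgeR's quasi-likelihood test. Called genes are in red and dotted lines mark 1.5-fold. The called desmosome genes are PPL in S2-028 against S2-007, DSG2, DSC2, PKP3, PPL and EVPL in S2-020 against S2-007, and DSG2, DSC2 and PKP3 in S2-028 against S2-020.

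DSG2 encodes the desmoglein found in all tissues with desmosomes. Its normalized CPM was 157, 169.6 and 170.5 in the S2-007 libraries, 71.8, 72.3 and 75.9 in the S2-020 libraries, and 189, 184 and 199 in the S2-028 libraries. The 3 lines did not overlap, in the order S2-028, S2-007, S2-020. DSG2 was 2.31-fold lower in S2-020 than in S2-007 (log2 fold change -1.21, SE 0.0537, adjusted p = 3.27e-13, edgeR). It was 2.60-fold higher in S2-028 than in S2-020 (log2 fold change 1.38, SE 0.0546, adjusted p = 1.01e-13, edgeR). Between S2-028 and S2-007 the difference was small, with a log2 fold change of 0.21 (SE 0.0592, adjusted p = 0.008997, edgeR). In bulk RNA, a lower level in every cell and fewer cells with the transcript cannot be told apart. Of the DSG2 exon bases, 3.26% lie under the antisense gene DSG2-AS1, and 5.91% of its transcript words of 31 bases also occur in other genes.

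DSC2 encodes the desmocollin that partners desmoglein 2 in simple epithelia. Its libraries held 1142, 1285 and 1150 counts in S2-007, 184, 188 and 174 in S2-020, and 1408, 1362 and 1523 in S2-028. In normalized CPM these were 15.3, 17.3 and 15.6, then 2.56, 2.26 and 2.43, then 22.7, 21.3 and 25.0. The lines did not overlap, and the S2-020 libraries lay far below the others. In S2-020 against S2-007 the log2 fold change was -2.76 (SE 0.124, adjusted p = 3.478e-13, edgeR), and in S2-028 against S2-020 it was 3.25 (SE 0.119, adjusted p = 3.174e-14, edgeR). Between S2-028 and S2-007 it was 0.52 (SE 0.0966, adjusted p = 0.0001713, edgeR), under the 1.5-fold threshold. DSC2 thus had the largest difference between lines of the 10 genes, and its direction in each comparison was that of DSG2.

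DSG3 and DSC3, the cadherins of the basal layers of stratified epithelium, had few reads. DSG3 had 55, 55 and 36 counts in S2-007, 19, 66 and 53 in S2-020, and 44, 82 and 81 in S2-028. The lines overlapped, and in S2-028 against S2-007 the log2 fold change was 0.76 with an SE of 0.351 (adjusted p = 0.1115, edgeR). Replicate 1 of S2-028 was the low library: without it the log2 fold change was 0.99 and DSG3 was called (adjusted p = 0.04373, edgeR). DSC3 had 80, 32 and 67 counts in S2-007, 53, 49 and 60 in S2-020, and 18, 39 and 38 in S2-028. Its log2 fold change in S2-028 against S2-007 was -0.66 (SE 0.431, adjusted p = 0.2861, edgeR). With standard errors this wide, a 1.5-fold difference in either gene was not detectable at this depth. Counts from 1 to 20 were even in 74.6% to 76.1% of cases per library, so small counts do not stand for independent reads. Counts over 1000 were even in 49.1% to 50.8% of cases. A few single reads suffice to level the parity of a large count, so this does not show that large counts are unaffected.

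Plakophilins are armadillo proteins that cluster cadherins and recruit desmoplakin. PKP3, which is widely expressed in epithelia, had 147, 155 and 163 normalized CPM in S2-007, 90.0, 91.4 and 95.7 in S2-020, and 205, 193 and 208 in S2-028. No library of any line overlapped with those of the others, and the order of the lines was that of DSG2 and DSC2. PKP3 was 1.72-fold lower in S2-020 than in S2-007 (log2 fold change -0.78, SE 0.0535, adjusted p = 2.7e-10, edgeR) and 2.19-fold higher in S2-028 than in S2-020 (log2 fold change 1.13, SE 0.0539, adjusted p = 1.632e-12, edgeR). PKP2, the plakophilin of simple epithelia and heart, had 59.9, 62.9 and 62.4 CPM in S2-007, 55.9, 51.2 and 50.4 in S2-020, and 76.1, 76.3 and 80.1 in S2-028. Its lines kept the same order without overlap, over a narrower range. In S2-028 against S2-020 the log2 fold change of PKP2 was 0.56 (SE 0.0620, adjusted p = 3.257e-07, edgeR), just below 1.5-fold, and it was called at 0.62 with upper quartile scaling, at 0.61 without S2-020 replicate 1 and at 0.59 without S2-028 replicate 2. Of the PKP2 transcript words, 14.7% also occur in other genes, so part of its reads may be shared. PKP1, the plakophilin of stratified epithelium, had 24, 44 and 44 counts in S2-007, 32, 34 and 24 in S2-020, and 14, 24 and 26 in S2-028. All its lines overlapped, and its log2 fold changes of -0.55, -0.37 and -0.21 had standard errors of 0.443 to 0.512.

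Plakins form the inner plaque. DSP had 141, 134 and 147 normalized CPM in S2-007, 166, 171 and 167 in S2-020, and 199, 188 and 209.9 in S2-028. Its lines did not overlap, with S2-007 lowest and S2-020 between the others. The log2 fold change was 0.50 in S2-028 against S2-007 (SE 0.0620, adjusted p = 1.051e-06, edgeR) and 0.22 in S2-020 against S2-007 (SE 0.0515, adjusted p = 0.001425, edgeR). DSP was therefore not lower in the line with the lowest DSC2, DSG2 and PKP3.

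PPL, which encodes the plakin that binds intermediate filaments and pairs with envoplakin, had 54.6, 50.8 and 45.0 normalized CPM in S2-007, 112, 108 and 112 in S2-020, and 125, 139 and 120.4 in S2-028. The S2-007 libraries lay below all others, and the other lines were close to each other without overlapping. Relative to S2-007, PPL in S2-028 had a log2 fold change of 1.36 (SE 0.0778, adjusted p = 8.291e-12, edgeR), and in S2-020 of 1.11 (SE 0.0687, adjusted p = 5.82e-11, edgeR). In S2-028 against S2-020 it was 0.22 (SE 0.0592, adjusted p = 0.005595, edgeR). EVPL had 269, 257 and 269.9 CPM in S2-007, 174, 169 and 196 in S2-020, and 209.7, 218 and 222 in S2-028. This order, with S2-007 highest, was the reverse of that of PPL with respect to S2-007. EVPL was 1.51-fold lower in S2-020 than in S2-007 (log2 fold change -0.59, SE 0.0572, adjusted p = 4.408e-08, edgeR). That call sat on the threshold and held in only 7 of 15 alternatives: the log2 fold change was -0.56 with DESeq2 size factors and -0.55 to -0.66 with a library left out. Between S2-028 and S2-007 the log2 fold change of EVPL was -0.29 (SE 0.0565, adjusted p = 0.0003215, edgeR).

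JUP encodes plakoglobin, the catenin shared by desmosomes and adherens junctions, and is not among the 10 genes. It had 168, 154 and 154 normalized CPM in S2-007, 13.8, 12.4 and 11.0 in S2-020, and 225, 253 and 199.9 in S2-028. The S2-020 libraries lay far below the others. JUP was 13.1-fold lower in S2-020 than in S2-007 (log2 fold change -3.72, SE 0.0789, adjusted p = 3.702e-18, edgeR) and 18.3-fold higher in S2-028 than in S2-020 (log2 fold change 4.19, SE 0.0920, adjusted p = 1.756e-17, edgeR). In S2-028 against S2-007 its log2 fold change was 0.51 (SE 0.0740, adjusted p = 9.751e-06, edgeR), and without S2-028 replicate 3 it was 0.59 and past 1.5-fold. Among the 9 other desmosome genes listed, JUP included, 8 were tested in each comparison. In S2-020 against S2-007, 3 were called lower (JUP, the corneodesmosin gene CDSN and the kazrin gene KAZN) and 1 higher (PERP, a tetraspan protein of desmosomes). PERP was at 1134 ± 82.4 CPM (SD, n = 3) in S2-020, 669.9 ± 25.4 in S2-007 and 582 ± 20.0 in S2-028. In S2-028 against S2-007, 1 was called higher (KAZN) and 0 lower, and in S2-028 against S2-020, 3 were called higher (JUP, KAZN and CDSN) and 1 lower (PERP). Of all genes tested, 9.57% were called higher and 12.1% lower in S2-020 against S2-007. The shares were 10.2% and 8.19% in S2-028 against S2-007, and 12.1% and 10.1% in S2-028 against S2-020. Counts of 1 of 8 genes are near these shares. The skin cadherin DSC1, which lies between DSC2 and DSG3 on the chromosome, had 25 to 51 counts in every library.

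Levels were compared between genes only per length, as normalized CPM per kb of the reference transcript. On that scale PKP3 had the highest level in each line, with 55.1 ± 2.95 CPM per kb (SD, n = 3) in S2-007, 32.8 ± 1.06 in S2-020 and 71.8 ± 2.79 in S2-028. EVPL came next in S2-007 (41.0 ± 1.10) and S2-020 (27.8 ± 2.19), whereas in S2-028 EVPL (33.5 ± 0.998) and DSG2 (33.5 ± 1.30) overlapped. In S2-007, DSG2 followed at 29.1 CPM per kb, then PKP2 (14.6) and DSP (14.5), whose libraries overlapped, and then PPL (8.02) and DSC2 (1.30). In S2-020, PPL (17.7) and DSP (17.3) overlapped above DSG2 (12.9) and PKP2 (12.4), which also overlapped, and DSC2 was at 0.196. In S2-028, DSP and PPL overlapped at 20.5 each, above PKP2 (18.3) and DSC2 (1.86). DSG3, DSC3 and PKP1 took the last places in every line, at 0.0643 to 0.198 CPM per kb. PPL therefore stood below PKP2 and DSP in S2-007 and level with DSP in the other lines. The 10 genes summed to 164 ± 4.15 CPM per kb in S2-007, 121 ± 3.33 in S2-020 and 200.4 ± 4.55 in S2-028, in libraries that did not overlap.

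Within the cadherin layer, DSG2 made up 94.8% to 95.3% of the per-length level of the 4 cadherins in the S2-007 libraries, 96.8% to 97.3% in S2-020 and 93.7% to 94.3% in S2-028. The share of DSC2 was 4.25% ± 0.215 (SD, n = 3), 1.48% ± 0.110 and 5.23% ± 0.203 in the same order of lines, so that S2-020 had the lowest desmocollin share as well as the lowest cadherin level. The DSC2 reference transcript has a long untranslated end, and per coding length its share was 10.6%, 3.85% and 12.9%. DSG3 and DSC3, the stratified-type cadherins, together took 0.734% ± 0.180 in S2-007, 1.52% ± 0.352 in S2-020 and 0.745% ± 0.239 in S2-028. The S2-020 libraries lay above those of each other line. The exact permutation test, two-sided, gave p = 0.1 for S2-020 against S2-007 and p = 0.1 for S2-028 against S2-020 (adjusted p = 0.15 over the 3 pairs for both), which is the smallest p that 3 libraries against 3 allow, and p = 1.0 for S2-028 against S2-007. The levels of DSG3 and DSC3 themselves overlapped between S2-020 and S2-007, whereas DSG2 in the denominator was lower. Markers of squamous cells summed to 34.1 to 41.5 normalized CPM in S2-020, 5.43 to 6.09 in S2-007 and 2.68 to 3.40 in S2-028. KRT5 gave most of the S2-020 sum at 26.7 ± 3.37 CPM (SD, n = 3), and S100A2 was at 9.67 ± 0.537. The other markers did not follow the sum. In S2-020 against S2-007, mean CPM was 0.501 against 0.480 for TP63, 0.184 against 0.180 for KRT14 and 0.0717 against 0.139 for KRT6A. The part of these markers in the share was not tested.

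Among the plakophilins, PKP3 made up 78.6% to 79.6% of the per-length level in the S2-007 libraries, 70.6% to 73.9% in S2-020 and 79.1% to 80.2% in S2-028. The remainder was nearly all PKP2, at 20.9%, 27.4% and 20.3%, so the mix shifted towards PKP2 in S2-020. Between the plakins PPL and EVPL, PPL took 16.4% ± 1.44 (SD, n = 3) in S2-007, 38.9% ± 1.57 in S2-020 and 37.9% ± 1.90 in S2-028. For PPL the line that stood apart was therefore S2-007, and for the cadherins and plakophilins it was S2-020.

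**Figure D3:**
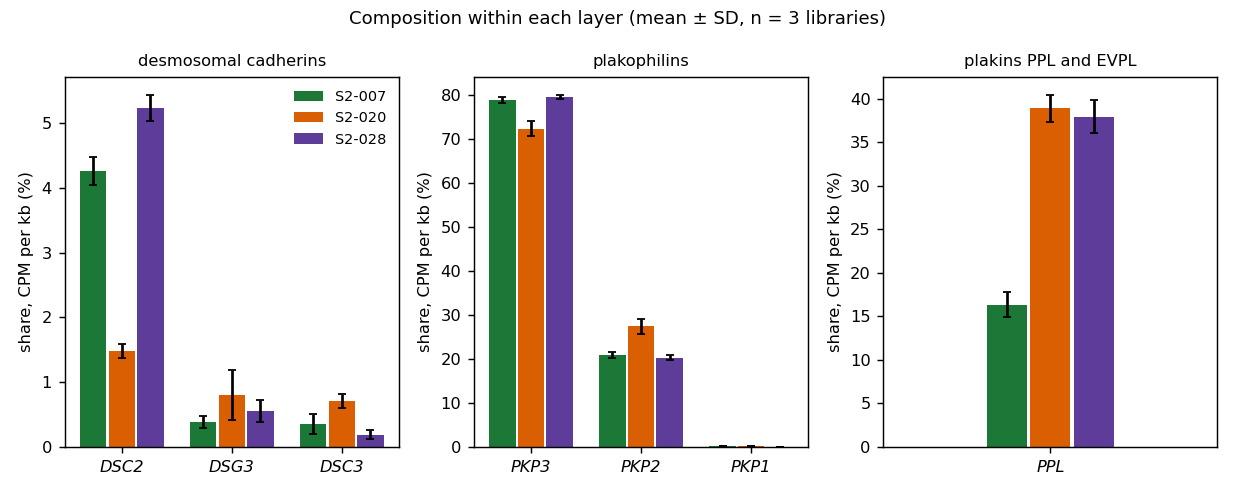
Share (%, mean ± SD of 3 libraries) of single genes in the per-length level of the 4 cadherins (DSG2, which makes up the rest, is not drawn), the 3 plakophilins, and the plakins PPL and EVPL, by line. DSC2 is lowest in S2-020 at 1.48%, PKP2 is highest there at 27.4%, and PPL is lowest in S2-007 at 16.4%.

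Each gene was also set beside its 50 nearest tested genes on the chromosome, the other desmosome genes left out. For DSC2 in S2-020 against S2-007, the neighbours had a median log2 fold change of -0.08 and all 50 lay above DSC2. For DSG2 in the same comparison the median was -0.09 and 49 of the 50 lay above it. The lower levels of both genes were thus not shared by most of these neighbours, which spanned 10.1 Mb for DSC2 and 9.98 Mb for DSG2. As members of the same cluster, both genes were left out of each other's neighbours. Within the cluster DSC3, DSC1, DSG1 and DSG3 were not called, at few reads and with standard errors of 0.366, 0.400, 0.826 and 0.417. Their log2 fold changes were -0.19, -0.10, 0.72 and -0.16 in the same order. The antisense gene DSG2-AS1 had a log2 fold change of -0.99 and was not called (adjusted p = 0.1718, edgeR). For PPL in S2-028 against S2-007 the neighbours had a median of -0.09 and 48 of 50 lay below PPL. PKP3 in S2-020 against S2-007 differed less from its surroundings, with a neighbour median of -0.34 and 40 of 50 neighbours above it. Of these neighbours 10 were called lower, where 12.1% of all genes tested were. In S2-028 against S2-020 the median was 0.14 beside 1.13 for PKP3, and 46 of 50 lay below it. JUP in that comparison had a neighbour median of -0.40, and 16 of its 50 neighbours were called lower and 4 of the 50 lay below JUP. These neighbours were only counted, so whether keratin genes of the list described below are among them was not checked. For DSP in S2-028 against S2-007 the neighbour median was 0.42, close to its own 0.50. For PKP1 in that comparison it was -0.51, with 21 of 50 neighbours called lower (8.19% of all genes tested), beside its own -0.55. The value of PKP1 had an SE of 0.499 (adjusted p = 0.4731, edgeR), too wide for this closeness to be informative.

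Genes of neighbouring structures were counted from lists of their own. Of all genes tested, 9.57% were called higher and 12.1% lower in S2-020 than in S2-007. In S2-028 against S2-007 these shares were 10.2% and 8.19%. Of 11 adherens junction genes, 4 were called lower in S2-020 than in S2-007 (the nectin gene NECTIN1, the cadherins CDH1 and CDH3, and the p120 catenin gene CTNND1) and 1 higher (CDH2). CDH1, the gene of E-cadherin, was at 54.2 ± 2.43 CPM (SD, n = 3) in S2-007, 4.54 ± 0.271 in S2-020 and 112 ± 7.16 in S2-028. Of 14 keratin genes tested, 9 were called lower and 2 higher in S2-020 than in S2-007, and KRT19, a keratin of ducts, was at 103 ± 12.9 CPM in S2-020 against 2123 ± 40.6 in S2-007. In S2-028 against S2-007, 5 keratins were called higher, KRT7, KRT18, KRT80 and KRT8 among them, and 2 lower. Of 8 hemidesmosome genes, 3 were called lower (COL17A1, ITGA6 and LAMA3) and 0 higher in S2-020 than in S2-007, and 3 higher and 2 lower in S2-028 than in S2-007. Few cornified envelope genes were expressed: 6 of 12 were tested in S2-020 against S2-007, with 3 lower and 1 higher, and 5 in S2-028 against S2-007, with 2 higher and 1 lower.

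Of 17 tested regulators of epithelial junction genes, 10 were called lower and 3 higher in S2-020 than in S2-007, and 9 higher and 5 lower in S2-028 than in S2-007. Of all genes tested, 12.1% were called lower and 9.57% higher in the first comparison, and 10.2% higher and 8.19% lower in the second. The list mixes activators and repressors, so these counts have no single reading. ESRP1, an epithelial splicing regulator, was at 0.599 ± 0.224 CPM (SD, n = 3) in S2-020, 35.3 ± 4.59 in S2-007 and 150.5 ± 10.1 in S2-028. GRHL2, a grainyhead factor, was at 15.6 ± 1.36, 27.7 ± 2.83 and 165 ± 4.59 CPM in these lines. ZEB1, a repressor of epithelial genes, ran the other way at 73.8 ± 3.28, 38.0 ± 2.02 and 14.2 ± 1.62 CPM. The SNAI repressors did not follow that order. SNAI2 was highest in S2-007, at 0.633 ± 0.139, 14.5 ± 2.27 and 0.539 ± 0.250 CPM in S2-020, S2-007 and S2-028. SNAI1, named after its values were seen, was at 1.01 ± 0.271, 0.396 ± 0.152 and 1.04 ± 0.204 CPM and was called higher in both S2-020 and S2-028 than in S2-007. Other regulators, also named after their values were seen, departed from the order of ESRP1 too. KLF5 and ELF3 were called lower in S2-028 (217 and 105 CPM on average) than in S2-007 (569 and 220 CPM), as was GRHL3. KLF4 was called higher in S2-020 (42.0 CPM) and S2-028 (29.0 CPM) than in S2-007 (15.7 CPM). The mesenchymal markers summed to 3091 to 3480 CPM in S2-020, 1379 to 1613 in S2-007 and 397 to 484 in S2-028, most of it VIM. The order of the lines in the epithelial sum, S2-028 before S2-007 and S2-020, was that of DSG2, DSC2, PKP2 and PKP3, and the mesenchymal sum had the reverse order. DSP, PPL and EVPL did not follow it: DSP and PPL were lowest in S2-007, and EVPL was highest there. The single markers did not all follow the sums. Of the 8 epithelial markers, 5 were called higher and 1 lower (MUC1, 16.9 ± 4.30 CPM against 25.8 ± 6.30) in S2-028 than in S2-007, where KRT8 and KRT18 carried most of the sum. EPCAM was at 421 ± 14.3 CPM in S2-028 and 527 ± 13.9 in S2-007, and KRT19 at 1933 ± 148 and 2123 ± 40.6. Of the 6 mesenchymal markers tested in that comparison, 2 were called lower (VIM and CDH2) and 2 higher (FN1 and COL1A1, at no more than 3.63 CPM on average). With 3 lines such an order is a description, and its part in the levels of the desmosome genes was not tested.

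The genes whose pattern over the 9 libraries was most like that of a desmosome gene were found among 10523 genes by the Euclidean distance of their centred log2 CPM, for the 4 desmosome genes whose line means spanned at least 1 on the log2 scale. For DSG2 they were PROSER2 (distance 0.1001), IRS1 and BECN1. For DSC2 they were LINC01694 (0.416), TSPAN1 and ARAP3, and for PKP3 they were ITPR3 (0.0944), GSR and RPA3. For PPL they were TSPAN31 (0.259), SPAG1 and B4GALT4. No gene of the junction, keratin or regulator lists was among these. With so few genes named out of 10523, this absence says little about those lists.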

How the data were processed

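RNA-seq of 9 libraries (3 each of S2-007, S2-020 and S2-028) was taken from a table of read counts per gene that the authors deposited as whole numbers without normalization. Per the study's methods, libraries were poly(A)-enriched and strand-specific, and reads were trimmed with Trimmomatic 0.39 and aligned with BWA 0.7.17 to GRCh38.p14. The submitters' processing notes also name SAMtools 1.12 and edgeR 3.16.5. The counting tool and its use of strand, overlapping genes and shared reads are not given in the sources used here, so reads of DSG2 and DSG2-AS1 cannot be told apart. BWA does not join reads across introns. Lines that name no gene (2, a sum and a ratio) and 18 columns of normalized counts were not used.

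Groups and replicate numbers came from the sample titles. The labels do not say that replicates were separate cultures, so p-values may measure technical spread. Same-numbered libraries of different lines did not deviate together (r -0.0219 to 0.014 over 9 pairs), so the numbers were not used as pairs. No libraries were duplicates.

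Counts were filtered with filterByExpr (minimum count 10, minimum total 15), TMM-normalized and tested with edgeR 4.0.16 in R 4.3.3 (glmQLFit, glmQLFTest), on the 6 libraries of each pair of lines, with Benjamini-Hochberg adjustment over all genes tested. The procedure was tested on simulated data. A call needed an adjusted p under 0.05 and a 1.5-fold difference. edgeR's test reports no standard error, so each SE is the absolute log2 fold change divided by the square root of the F statistic. Printed CPM use TMM factors of all 9 libraries. Lengths are those of the MANE transcripts in GENCODE 44, and gene positions and promoters are those of RefSeq, which matched 42539 of the 42717 genes (99.6%). Shares were compared with exact permutation tests (scipy 1.17.1). DESeq2 1.42.0 and other scalings, filters and left-out libraries were tried as alternatives. All 10 genes and JUP are named, with at most 4 called genes of each other list in a comparison. The regulators are an exception, with further genes named after their values were seen. The members and lists were chosen with earlier results of these data known. PCR duplicates could not be identified, so precision from read number reflects counting error alone.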

Additional observations from a re-analysis of the deposited data

How the results depend on the processing

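Each result was recomputed under up to 15 alternatives: DESeq2 size factors or upper quartile scaling, no filter or at least 10 counts in every library, a likelihood ratio test, the DESeq2 Wald test, a 1.5-fold change as the null hypothesis, all 9 libraries in one fit, the replicate block, and each library left out in turn. The number of desmosome genes called higher in S2-028 against S2-007 was 1 to 2 with a library left out, 2 without S2-028 replicate 1, where DSG3 joined PPL. The fold changes that turned direction belonged to the genes with few reads and never passed the threshold in either direction. They were DSG3 in S2-020 against S2-007 (-0.42 to 0.19 with a library left out, 0.19 without S2-020 replicate 1), DSC3 in the same comparison (-0.47 to 0.0877, 0.0877 without S2-007 replicate 1) and PKP1 in S2-028 against S2-020 (-0.39 to 0.0175, 0.0175 without S2-028 replicate 1). With coding lengths, an alternative chosen after seeing the data, the share of DSG3 and DSC3 was 0.933% in S2-007 and 2.01% in S2-020. With the replicate block, 4 genes were called higher in S2-028 against S2-020, DSG3 joining the others (log2 fold change 0.96, adjusted p = 0.03559, edgeR), and the calls of the other comparisons stayed at 1 higher and 0 lower in S2-028 against S2-007 and at 1 higher and 4 lower in S2-020 against S2-007. Replicate numbers did not pair the libraries. Against a 1.5-fold null the EVPL difference between S2-020 and S2-007 had an adjusted p of 0.7849 (edgeR). The calls of DSG2, DSC2, PKP3 and PPL held in every alternative. Few reads limit DSG3, DSC3 and PKP1.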
